A study of Mus musculus with 21 samples.

Results

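Lesional skin of *Ifnk* TG mice was compared with skin of WT mice over every gene with enough counts, and no gene list chose what was tested. The libraries are those that the labels of the skin count table give as lesional *Ifnk* TG, replicates 4, 5, 6 and 7 (L), and as WT, replicates 8, 9 and 10, which makes 7 of the 21 libraries of the series. The other libraries are 2 of non-lesional *Ifnk* TG skin (NL, replicates 2 and 3), whose values are shown beside the others where they help, and 12 of lymph nodes, which are not used. All mice of the skin set were 12 months old and untreated. *Ifnk* TG mice carry an added copy of *Ifnk* driven by the keratin 14 promoter, which is active in basal keratinocytes and in the outer root sheath of the hair follicle. The transgene was inserted with a PiggyBac vector in C57Bl/6 mice, which were then backcrossed onto BALB/c, and the WT mice were BALB/c mice that carry no transgene. Mice of both sexes entered the study. Lesions arose at several body sites, and the paper places most of them on the face. Its supplement says that non-lesional skin was taken from the back and from sites like those of the lesions. The labels give neither sex, body site nor mouse for any library. Lesion, genotype and body site therefore cannot be told apart in this comparison.

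Interferon-κ is a type I interferon that keratinocytes make. Type I interferons bind a shared receptor and act through STAT proteins on a set of antiviral genes, and high expression of these genes is a known feature of skin in cutaneous lupus. Skin holds epidermis, hair follicles that alternate between growth and rest, sebaceous glands, a collagen-rich dermis, fat, a thin sheet of muscle and immune cells. The RNA of a whole piece follows both how many cells of each type it holds and what each cell expresses, and fewer cells of a type and less RNA per cell cannot be told apart here.

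RNA was read as counts per gene, and levels are given as CPM, the counts of a gene relative to the total of its library after scaling between libraries. Values for single libraries follow the order L replicates 4, 5, 6 and 7 and WT replicates 8, 9 and 10. A gene is said to have risen or fallen where its adjusted p, which allows for the number of genes tested, was under 0.05 in edgeR's test, and changes are log2 fold changes of L over WT skin, so that 1 is a doubling. Each WT library held between 42006749 and 45968081 counts and each L library between 40499078 and 56511276. *Krt14* (ENSMUSG00000045545, chr11:100203162-100207548), the keratin of basal keratinocytes whose promoter drives the transgene, had 4665, 3933, 3896 and 1416 CPM in L skin and 1339, 1374 and 1219.95 CPM in WT skin. It rose by 1.41 ± 0.36 (SE; adjusted p = 0.013), with L replicate 7 just above the WT libraries, and without WT replicate 10 its adjusted p was 0.051. *Ifnk* itself (chr4:35152056-35154005) stayed close to the limit of detection, with 0.255, 0.271, 0.110 and 0.144 CPM in L skin and no counts in WT skin, and was at least 2.74-fold higher when WT skin is set to 3 counts per library (adjusted p = 0.019), and without L replicate 4 or 5 it did not pass the filter on low counts. In all, *Ifnk* could be fitted under 14 of 18 alternatives. Keratins of the differentiating epidermis were abundant in all 7 libraries, with *Krt10* at 9200.2, 6091, 6898 and 2826 CPM in L skin and 5045, 4328 and 4056 CPM in WT skin. *Xist*, which is expressed from the inactive X chromosome of female cells, had 8109, 7119, 6 and 6700 counts in L skin and 7837, 3324 and 3297 in WT skin. L replicate 6 thus had almost no *Xist*, as had NL replicate 3 with 13 counts, while Y-linked genes had no counts in any L or NL library.

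The response covered much of the genome. Of 19101 genes tested, 43.1% passed the threshold, and 23% were higher and 20.2% lower in L skin. Which direction had more calls depended on the settings, since a fit of the L and WT libraries alone gave 3589 higher and 3867 lower, and a filter at 10 counts in each of these libraries gave 3341 higher and 3786 lower. For 22% of tested genes the libraries of a gene called higher did not overlap between L and WT skin, and for 19.5% the same held for a gene called lower. The sizes of the changes were less even than their number. Among increases 2241 genes reached a log2 fold change of 1, 1211 reached 2, 400 reached 5 and 162 reached 10. Among decreases 2038 genes reached -1, 810 reached -2, 41 reached -5 and none fell as far as the strongest increases rose. Many of the strongest increases were of genes that WT skin hardly expressed, since 208 of the genes that rose had no count in any WT library, whereas 15 of the genes that fell had none in any L library. The size of a rise from no counts depends on the fit, so such genes are given with a lower bound. Changes under a doubling made up 48.1% of all calls. The median change over all tested genes was 0.06, which is the value to hold list medians against. Counts of list members that rose or fell are to be held against the 23% and 20.2% of all tested genes. Leaving out a library also lowered the calls over all genes, so list counts without a library fall partly for that reason.

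The genes that rose took 37.1%, 42.6%, 39.7% and 39.8% of all counts in L skin and 18%, 17.8% and 17.2% in WT skin. Those shares partly follow from how the genes were picked. The genes that fell took 16.3%, 12.2%, 15.2% and 15.8% in L skin and 33.5%, 33.8% and 34.6% in WT skin. The 400 strongest increases alone took 2.64%, 6.48%, 5.09% and 5.91% of L counts and at most 0.0117% of those of a WT library. Calls were spread over all autosomes, from 20.1% of tested genes called higher on chromosome 6 to 26.6% on chromosome 3. Protein-coding genes were called more often than other kinds, with 25% higher and 21.99% lower, against 17.9% and 17.9% of lincRNA genes. Antisense genes were called lower in 16.04% and higher in 8.91% of cases. Expression level also mattered, with 13.7% called higher among the 4776 genes of lowest expression and 29.1% among the 4775 of highest expression. Among libraries left out in turn, a WT library lowered the count of calls most, to 6243 without WT replicate 10.

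**Figure D1:**
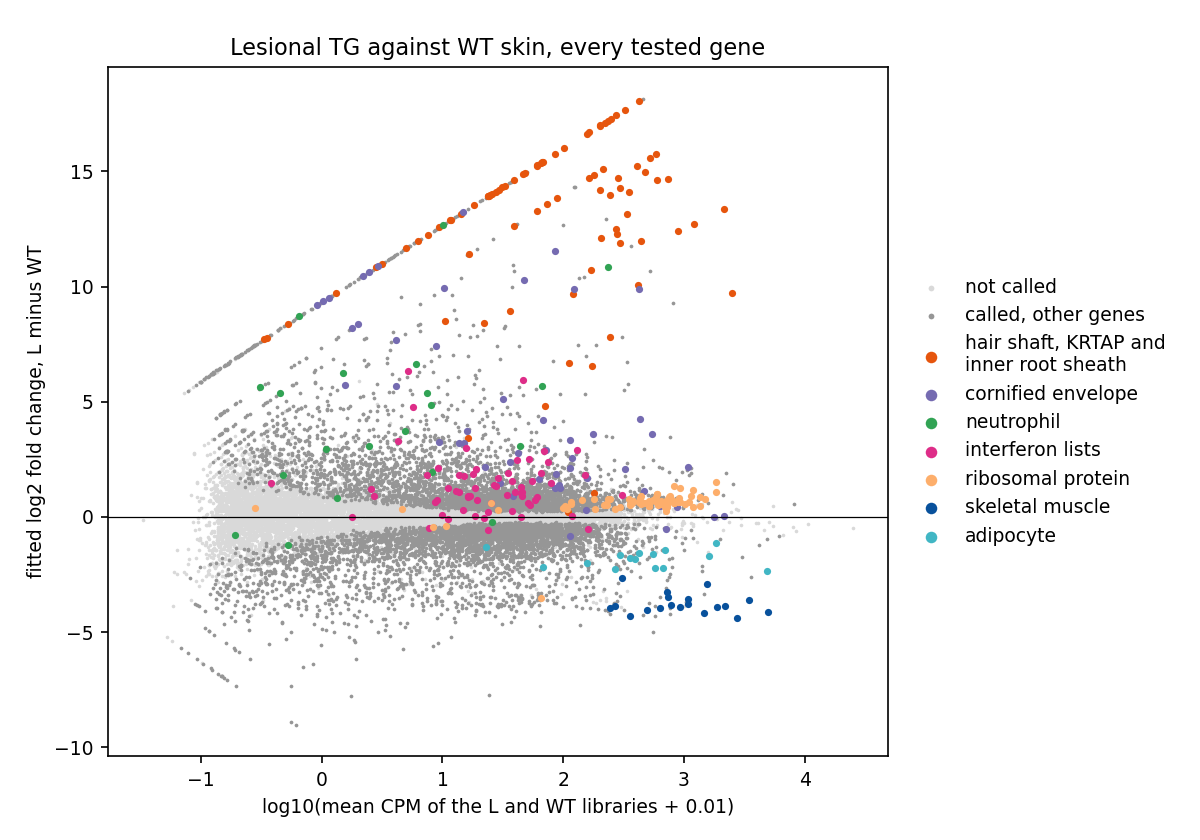
Log2 fold change of L over WT skin for each of the 19101 tested genes against the log10 of its mean CPM plus 0.01, with called genes in dark grey and members of selected lists in colour. The straight upper edge is of genes with no count in WT skin, whose values depend on the fit and give no size.

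The largest fold increases were of genes that build a hair. Hair keratins and keratin-associated proteins (KRTAP) make up the shaft, and another set of keratins with trichohyalin makes up the inner root sheath that moulds it, and all of these are made only while a follicle is growing. All 57 tested KRTAP genes rose, with a median log2 fold change of 14.38 (15.26 without WT replicate 8), or 10.54 when the 52 of them with no more than 3 counts in any WT library are taken at 3 counts. Their summed level was 6898, 26598, 9273 and 12059.8 CPM in L skin and 4.63, 3.44 and 2.94 CPM in WT skin, so that L replicate 5 had the most and L replicate 4 the least, far above every WT library. The NL libraries had 4.99 and 12.2 CPM. *Krtap7-1* (chr16:89507703-89508323), the most abundant, had 570.4, 2198, 1017 and 1414 CPM in L skin and 0.0912, 0 and 0.0495 CPM in WT skin, a rise of 14.66 ± 1.41 (SE; adjusted p = 0.00027). *Krtap6-2* (chr16:89419326-89420111) was not seen in WT skin and reached 383, 956, 269 and 325 CPM in L skin, at least 6781-fold higher (adjusted p = 0.00054).

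The 15 tested keratins of the hair shaft also all rose (median 11.98, or 11.87 with 6 at their limit), and their sum was 2187, 6661, 5534 and 7113 CPM in L skin and 8.19, 7.05 and 9.22 CPM in WT skin. *Krt33a* (chr11:100011195-100016212), an acidic hair keratin, had 285, 1007, 767 and 1042 CPM in L skin and 0.251, 0.237 and 0.0742 CPM in WT skin and a change of 11.98 ± 0.79 (SE; adjusted p = 6.7e-05). *Krt34* was at least 7981-fold higher. Every L library lay far above every WT library for these genes, and L replicate 4 had the lowest level. Among 13 inner root sheath genes 12 rose and 0 fell (median 9.72), with sums of 6052, 12309.7, 16682 and 22621 CPM in L skin and 205, 248 and 223 CPM in WT skin. *Krt71* (ENSMUSG00000051879, chr15:101733949-101743109), a type II keratin of the sheath, had 1096, 2734, 4672 and 6608 CPM in L skin and 0.274, 0.760 and 0.0247 CPM in WT skin, a change of 13.37 ± 1.51 (SE; adjusted p = 0.00046). *Krt25* (chr11:99315516-99322951), its type I counterpart, had 734, 1519.9, 2549.7 and 3647 CPM in L skin and 0.228, 0.451 and 0.247 CPM in WT skin and changed by 12.73 ± 1.23 (SE; adjusted p = 0.00026). Trichohyalin (*Tchh*, chr3:93442330-93449077) hardens the sheath and the medulla, and had 2259, 3974, 4768 and 6429.6 CPM in L skin and 6.39, 4.25 and 4.82 CPM in WT skin, a change of 9.72 ± 0.58 (SE; adjusted p = 4.7e-05). For these 3 genes L replicate 7 was highest and L replicate 4 lowest, whereas the KRTAP sum was highest in L replicate 5. Per kilobase of exon, *Krt71* reached 1728 CPM in L skin beside 1978 for *Krt14*. With a stricter filter, 10 counts in each of the 7 libraries, 1 KRTAP gene, 2 hair shaft keratins and 5 sheath genes were left among the calls, because WT skin had so few counts of the rest.

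Regulators of the growing follicle rose with its products. Of 33 genes of follicle growth and Wnt signalling 22 rose and 2, *Cd34* and *Lgr6*, fell (median 1.03; the number that fell was 1 without WT replicate 8 or 10 or L replicate 6 or 7). Among all tested genes 23% rose and 20.2% fell. *Shh*, the signal that drives follicle downgrowth, had 3.42, 4.56, 11.8 and 12.1 CPM in L skin and 0.0228, 0 and 0 CPM in WT skin (adjusted p = 0.00050). *Lef1*, a transcription factor of the Wnt pathway in the matrix and cortex, had 7.14, 9.87, 26.7 and 41.9 CPM in L skin and 0.0684, 0.166 and 0.247 CPM in WT skin and rose by 7.05 ± 0.87 (SE; adjusted p = 0.00059). *Msx2*, a homeobox gene of the matrix, had 32.0, 45.6, 64.8 and 106 CPM in L skin and 1.78, 0.855 and 2.08 CPM in WT skin and rose by 5.31 ± 0.53 (SE; adjusted p = 0.00027). *Hoxc13* (chr15:102921103-102928814), which controls hair keratin genes, had 32.2, 56.4, 56.2 and 86.8 CPM in L skin and 2.19, 1.97 and 2.13 CPM in WT skin and rose by 4.79 ± 0.34 (SE; adjusted p = 6.8e-05). All 4 were lowest in L replicate 4. *Cd34*, which marks stem cells of the resting bulge but also endothelium and fibroblasts, had 99.3, 106, 135 and 121 CPM in L skin and 219, 422 and 389.5 CPM in WT skin and changed by -1.58 ± 0.22 (SE; adjusted p = 0.00076).

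The strongest increases were grouped on the chromosomes. Of the 400 genes that rose by a log2 fold change of 5 or more, 184 lay in 8 clusters of at least 5 such genes, each within 1000 kb of the next. The clusters were built from these genes, so the counts of higher genes inside them largely follow from that choice and test nothing. The largest runs from *Krt25* to *Krt16* (chr11:99315516-100248902), and holds type I keratins and KRTAP genes. Of its 63 tested genes 55 rose and 3 fell. A KRTAP cluster on chromosome 16 (chr16:88505807-89571183) had 34 of 37 tested genes higher, with 33 among the 400. Another on chromosome 10 (chr10:77689957-77862882) held 24 tested genes, all among the 400. The epidermal differentiation complex on chromosome 3 (chr3:92122204-93471980) had 49 of 56 higher and 0 lower. Type II keratins on chromosome 15 (chr15:101431038-101802346) had 16 of 18 higher. The cystatin cluster on chromosome 16 (chr16:36210403-36455392), with the stefin genes, held 6 tested genes, all among the 400. A cluster on chromosome 1 (chr1:82770824-83061921), of KRTAP genes and unnamed gene models, had 12 of 14 higher. The cluster on chromosome 7 (chr7:141278330-143094642) also holds KRTAP genes but was mixed, with 28 of 60 higher and 11 lower. Of the 400 genes 81 belong to the KRTAP, hair shaft or sheath lists, 19 to the cornified envelope list, and 118 carry only a model name. Neighbours of a KRTAP cluster share much of their sequence, so the split of reads among them is uncertain.

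A TATA box was more frequent in the promoters of the strongest increases than in others. RefSeq sequences of GRCm38.p6, 250 bases before the first listed start of a gene, were searched on the gene's own strand for a 6-base form of the TATA box. It was present in 8.12% of the 27025 promoters listed and in 5.54% of the 13140 of tested genes. Among the 400 strongest increases, 280 had a listed promoter and 43.6% of those held it. For KRTAP genes the share was 80% of 50 and for cornified envelope genes 34.7% of 49, while it was 8.54% among all genes called higher and 3.99% among all genes called lower. A match describes the letters only, and KRTAP promoters of one cluster are not independent of each other. The bases around the motif are shown for hair and envelope genes that carry the result, with the motif in capitals, 5′ to 3′ on the gene's strand.
Krt34, chr11:100041555-100041625: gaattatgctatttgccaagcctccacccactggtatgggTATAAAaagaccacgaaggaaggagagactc
Krt71, chr15:101743098-101743177: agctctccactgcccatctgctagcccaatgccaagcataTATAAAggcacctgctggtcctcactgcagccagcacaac
Krtap6-2, chr16:89420115-89420200: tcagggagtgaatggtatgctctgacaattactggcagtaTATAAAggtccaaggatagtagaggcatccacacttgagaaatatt
Flg, chr3:93273453-93273538: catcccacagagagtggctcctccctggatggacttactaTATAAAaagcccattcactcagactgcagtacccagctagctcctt
Tgm3, chr2:130012272-130012339: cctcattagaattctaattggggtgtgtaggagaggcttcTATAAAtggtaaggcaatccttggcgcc

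Many genes of the epidermis itself also rose, by amounts that differed between lesions. Of 52 tested cornified envelope genes, which build the cross-linked shell of dead keratinocytes, 44 rose (median 3.24), and none fell (1 without L replicate 7). Among all tested genes 23% rose and 20.2% fell. Summed levels were 19379, 15758, 14563 and 7865 CPM in L skin and 8730.4, 7363 and 6837 CPM in WT skin, where L replicate 7 alone among the lesions fell within the range of the WT libraries. NL skin had 12371 and 13283.8 CPM, above every WT library and within the range of the lesions. *Flg* (chr3:93273523-93293686), which encodes filaggrin, had 1249, 720.3, 586 and 356 CPM in L skin and 35.9, 43.5 and 34.7 CPM in WT skin and rose by 4.26 ± 0.43 (SE; adjusted p = 0.00025). Its promoter stretch is among those printed. *Sprr2a1* (chr3:92215799-92221911), a small proline-rich envelope protein of inflamed epidermis, was absent from WT skin and reached 32.8, 17.7, 44.1 and 8.32 CPM in L skin, at least 361-fold higher (adjusted p = 0.0019). *Tchhl1*, a trichohyalin relative in the same chromosome 3 complex, had 53.3, 311, 77.5 and 161 CPM in L skin and 0.0684, 0 and 0.0742 CPM in WT skin and rose by at least 11.05 (adjusted p = 0.00023) with WT skin set to 3 counts per library. The cross-linking enzyme transglutaminase 3 (*Tgm3*, chr2:130012349-130050399) had 99.8, 118, 128 and 110.5 CPM in L skin and 4.79, 9.38 and 4.30 CPM in WT skin and rose by 4.21 ± 0.29 (SE; adjusted p = 6.5e-05), with little spread between lesions. *Dmkn*, the most abundant member, had 3148, 2159, 2264 and 1154 CPM in L skin and 2499.5, 1955 and 1970.1 CPM in WT skin (adjusted p = 0.95). *Klk6*, a serine protease, had 219, 184, 193 and 70.0 CPM in L skin and 7.00, 14.7 and 5.81 CPM in WT skin and rose by 4.18 ± 0.53 (SE; adjusted p = 0.00071). The ion pump gene *Atp12a* had 79.7, 147, 52.5 and 65.4 CPM in L skin and 5.88, 3.73 and 5.49 CPM in WT skin, the protease gene *Prss53* had 70.0, 126, 89.4 and 132 CPM in L skin and 5.66, 4.75 and 4.62 CPM in WT skin and the serpin gene *Serpinb6d* had 246, 1080.03, 703 and 315 CPM in L skin and 0.730, 15.3 and 0.371 CPM in WT skin. They rose by 4.09, 4.38 and 6.74 on the log2 scale, with WT replicate 9 standing well above the other WT libraries for *Serpinb6d*. Over the alternative settings and left-out libraries, the change of *Serpinb6d* ranged from 6.19 to 10.03.

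Keratins that mark stressed or wounded epidermis varied between lesions. Of 8 such keratins 5 rose (*Krt16*, *Krt6b*, *Krt75*, *Krt6a* and *Krt17*) and 1, *Krt19*, fell, with a median of 2.19 (3.17 without WT replicate 10). *Krt16* (chr11:100246091-100248902) had 686, 269, 1338 and 87.6 CPM in L skin and 11.9, 15.2 and 5.81 CPM in WT skin and rose by 5.76 ± 1.04 (SE; adjusted p = 0.0034). *Krt6b* (chr15:101676023-101680287), its partner, had 749, 246, 1109 and 73.1 CPM in L skin and 11.6, 17.8 and 5.96 CPM in WT skin and rose by 5.53 ± 1.04 (SE; adjusted p = 0.0041). L replicates 4 and 6 were highest and L replicate 7 lowest for both, still above all WT libraries. *Krt17*, which the outer root sheath also makes, had 1431, 2343, 1632 and 1275 CPM in L skin and 494, 479.9 and 370.3 CPM in WT skin and rose by 1.90 ± 0.23 (SE; adjusted p = 0.00047). *Krt75*, a keratin of the follicle's companion layer, ran the other way among lesions, with 241, 372, 404 and 638 CPM in L skin and 45.6, 26.8 and 38.9 CPM in WT skin and a rise of 3.48 ± 0.35 (SE; adjusted p = 0.00026). Among 11 keratins of the epidermis between follicles 5 rose (*Krt2*, *Krt79*, *Krt1*, *Krt14* and *Krt23*) and 1, *Krt15*, fell, and the median was 0.48. Beside the counts of both keratin lists, 23% of all tested genes rose and 20.2% fell. The number that rose was 3 without WT replicate 9 and 2 without WT replicate 10, and the number that fell 0 without WT replicate 8, 9 or 10 or L replicate 6. In those first 2 fits 3256 of 18934 and 3302 of 18989 tested genes rose. The list summed to 27361, 23706, 22816 and 9924 CPM in L skin and 16115, 14336 and 12900 CPM in WT skin. L replicate 7 thus lay below every WT library, and NL skin had 26875 and 24651 CPM, above every WT library. *Krt1*, made as cells leave the basal layer, had 4590.2, 2483, 4415 and 1503 CPM in L skin and 1003, 878 and 738 CPM in WT skin and rose by 1.90 ± 0.39 (SE; adjusted p = 0.0053), and *Krt79*, found in the follicle's upper duct, had 1181, 2568, 1170.2 and 716 CPM in L skin and 347, 434 and 321 CPM in WT skin and rose by 1.94 ± 0.40 (SE; adjusted p = 0.0052). *Krt10*, whose values stand with the first results, had an adjusted p of 0.28.

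Dividing cells left a clear mark. Of 37 cell cycle genes 36 rose and none fell, at a median of 2.28, and this count was the same without any of the 7 libraries in turn. Among all tested genes 23% rose and 20.2% fell. Their sum was 950.1, 919.7, 1366 and 1653 CPM in L skin and 320.2, 319.8 and 345 CPM in WT skin, highest in L replicate 7, with 512 and 420.2 CPM in NL skin. *Bub1*, a kinase of the spindle checkpoint, had 9.54, 7.30, 13.2 and 18.3 CPM in L skin and 0.844, 0.475 and 0.915 CPM in WT skin and rose by 4.02 ± 0.40 (SE; adjusted p = 0.00021). *Birc5*, a protein of the dividing chromosome, had 13.2, 10.5, 14.5 and 18.2 CPM in L skin and 0.958, 0.760 and 1.93 CPM in WT skin and rose by 3.54 ± 0.36 (SE; adjusted p = 0.00023). *Plk1*, a mitotic kinase, had 9.32, 7.77, 17.7 and 20.6 CPM in L skin and 1.12, 0.973 and 1.71 CPM in WT skin and rose by 3.45 ± 0.41 (SE; adjusted p = 0.00043). *Pcna*, the clamp of the replication fork and the most abundant member, had 103, 109, 117 and 135 CPM in L skin and 64.9, 62.3 and 64.6 CPM in WT skin and rose by 0.86 ± 0.12 (SE; adjusted p = 0.00072). Named members of a list, other than its most abundant one, were chosen among genes without overlap between L and WT skin. The lack of overlap of these genes therefore tests nothing. The growing hair matrix and thickened epidermis both divide, and their shares of this rise were not tested.

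Pigment cell genes rose as well. Melanocytes of the hair bulb can make pigment while a hair grows, but only transcripts were measured here, and not pigment. Of 13 melanocyte genes 11 rose and none fell (median 5.01, 4.16 without L replicate 7, or 4.59 with 3 at their limit), and their sum was 178, 178, 199.7 and 774 CPM in L skin and 49.0, 54.9 and 43.0 CPM in WT skin. L replicate 7 stood far above the other lesions. *Dct*, an enzyme of pigment synthesis, had 45.2, 48.6, 54.2 and 249 CPM in L skin and 11.1, 6.81 and 5.49 CPM in WT skin and rose by 3.67 ± 0.75 (SE; adjusted p = 0.0057). Over the alternative settings and left-out libraries, its change ranged from 2.66 to 4.01. *Mc1r*, the receptor that sets the pigment type, had 7.14, 9.08, 5.77 and 21.9 CPM in L skin and 0.0684, 0 and 0.0247 CPM in WT skin and rose by at least 7.27 (adjusted p = 0.00036) with WT skin set to 3 counts per library. *Oca2*, a melanosome transporter, had no count in WT skin and 1.602, 1.23, 2.58 and 12.3 CPM in L skin (adjusted p = 0.011), most of it in L replicate 7. Of 20 sebaceous gland genes 8 rose and 3 fell (*Dgat2*, *Pparg* and *Scd3*), at a median of 0.57, beside 23% higher and 20.2% lower of all tested genes. The number higher was 4 without WT replicate 8 or 10, and the number lower 0 without WT replicate 8. *Elovl3* (chr19:46131897-46135694), which lengthens fatty acids in sebaceous glands and follicles, had 156, 395, 222 and 265 CPM in L skin and 6.84, 8.74 and 3.96 CPM in WT skin and rose by 5.32 ± 0.44 (SE; adjusted p = 0.00013). *Fads2*, a desaturase, had 33.1, 34.8, 38.9 and 68.4 CPM in L skin and 6.68, 5.96 and 8.73 CPM in WT skin and rose by 2.62 ± 0.30 (SE; adjusted p = 0.00037). *Scd1*, the most abundant of the list, had 1824, 3925, 2996 and 3152 CPM in L skin and 2033, 2005 and 1592 CPM in WT skin (adjusted p = 0.075).

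**Figure D2:**
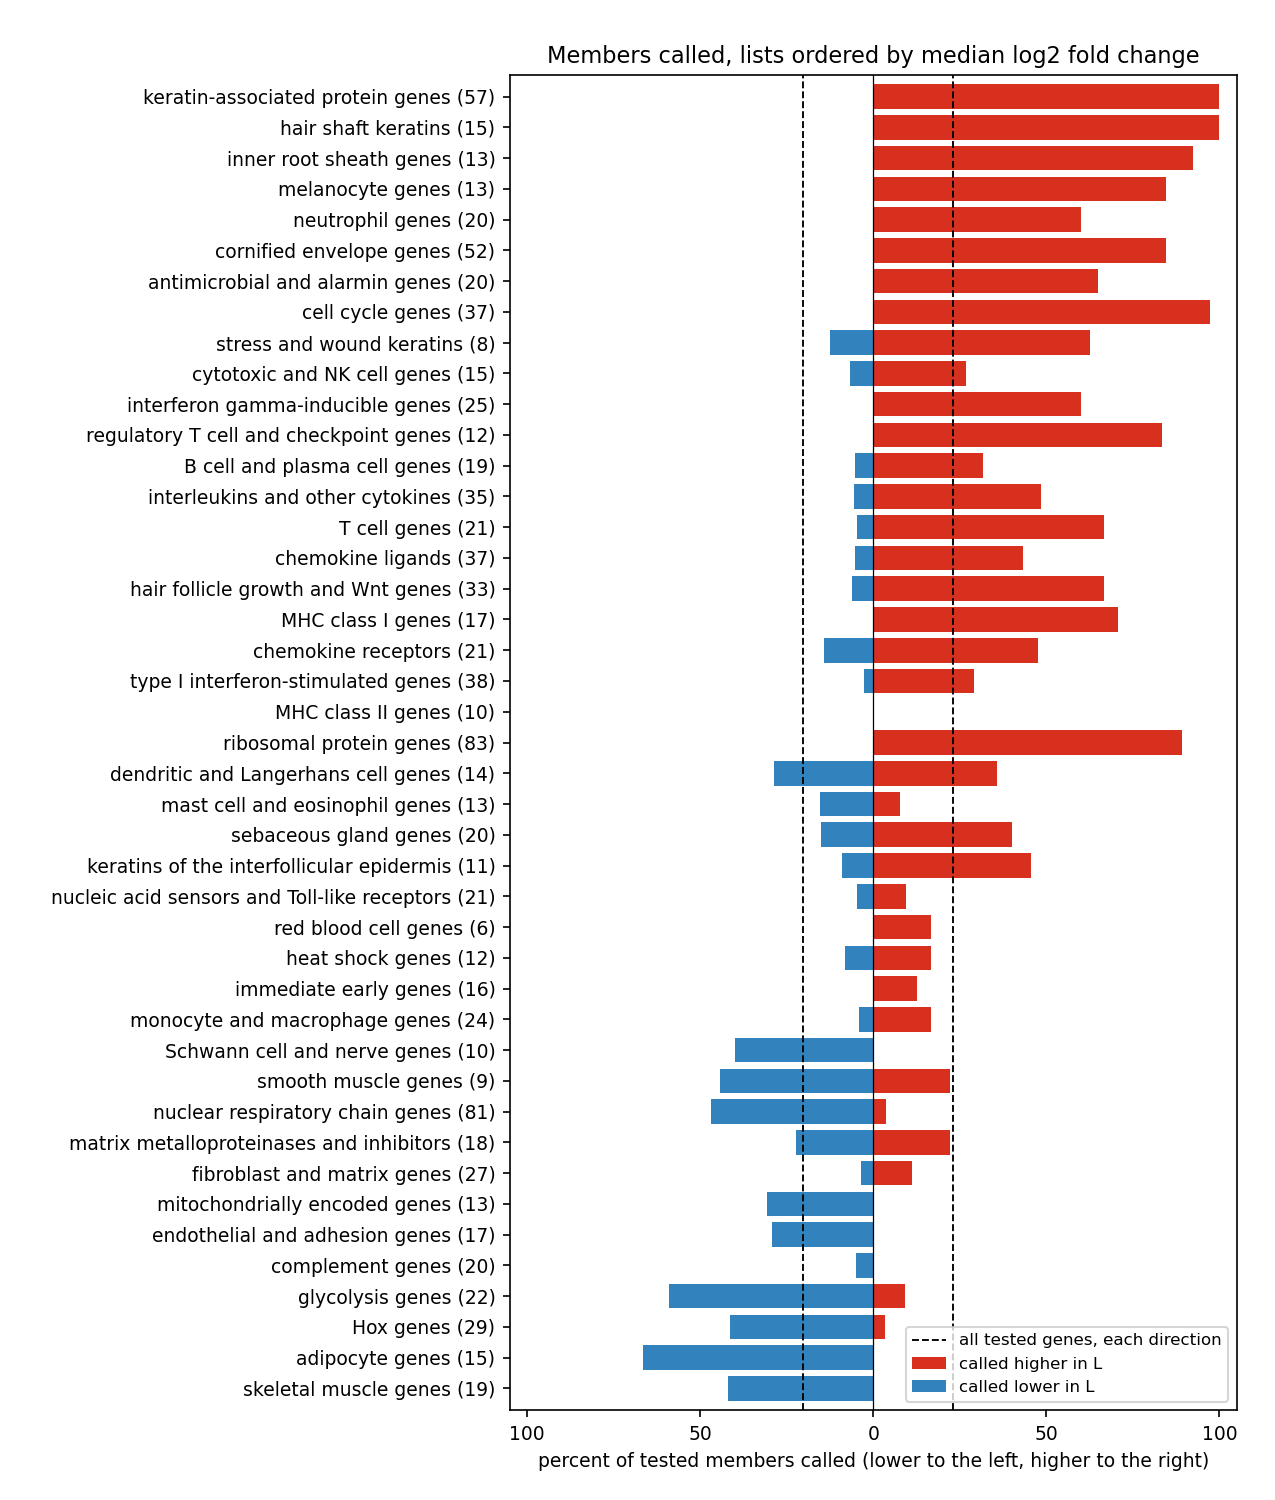
Percent of the tested members of each gene list (their number in brackets) called higher in L skin, to the right, or lower, to the left, with lists ordered by median log2 fold change. Dashed lines give the 23% and 20.2% of all tested genes, and the hair lists stand at the top with medians of 14.38, 11.98 and 9.72 and skeletal muscle at the bottom with -3.89.

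Interferon-stimulated genes differed between lesions, and most were not called. Of 38 type I interferon-stimulated genes 11 rose, and 1, *Ifi27*, fell, with a median of 0.88. Beside this, 23% of all tested genes rose. Their summed level was 2447, 1211, 2728 and 1311 CPM in L skin and 1329, 1205 and 1045 CPM in WT skin. L replicates 4 and 6 lay well above all WT libraries, while L replicates 5 and 7 lay within their range, and NL skin had 1076 and 1156 CPM. The number that rose was 5 without WT replicate 8 or 9, 2 without WT replicate 10 and 7 without L replicate 4 or 6, 17 with DESeq2 and 7 with no filter on low counts. *Isg15* (ENSMUSG00000035692, chr4:156199424-156200818), a ubiquitin-like protein, had 136, 57.0, 102 and 26.1 CPM in L skin and 16.5, 13.8 and 11.9 CPM in WT skin and rose by 2.51 ± 0.57 (SE; adjusted p = 0.0094). *Oas2*, a sensor enzyme for double-stranded RNA, had 18.0, 10.3, 22.2 and 4.38 CPM in L skin and 2.44, 4.18 and 2.89 CPM in WT skin and rose by 2.11 ± 0.53 (SE; adjusted p = 0.013), and without WT replicate 8 its adjusted p was 0.051. The same order, with L replicates 4 and 6 above 5 and 7, held for both genes.

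Genes that interferon gamma also induces were counted as a list of their own. Of 25 such genes 15 rose and none fell (median 1.88), 5 without WT replicate 9 or 10 and 8 with no filter on low counts. Beside these counts and those of class I genes below, 23% of all tested genes rose and 20.2% fell. Without WT replicates 9 and 10 in turn, 3256 of 18934 and 3302 of 18989 tested genes rose, and 3844 of 29278 rose with no filter. Their sum was 1428, 555, 2665 and 533 CPM in L skin and 402, 287 and 286 CPM in WT skin. Every lesion lay above every WT library here, and L replicate 6 was highest. *Iigp1*, an interferon-induced GTPase, had 215, 52.2, 473 and 92.7 CPM in L skin and 43.7, 16.3 and 22.3 CPM in WT skin and rose by 2.92 ± 0.79 (SE; adjusted p = 0.019), and its adjusted p was 0.066 without WT replicate 9, 0.065 without WT replicate 10 and 0.057 with no filter. *Cxcl9* (chr5:92321347-92328079), a ligand that draws activated T cells, had 91.8, 41.5, 169.8 and 19.9 CPM in L skin and 2.24, 0.784 and 0.866 CPM in WT skin and rose by 5.95 ± 0.95 (SE; adjusted p = 0.0020). For antigen presentation by class I molecules 12 of 17 genes rose and none fell (median 1.005), a number that was 7 without WT replicate 8 or L replicate 4 or 6, 4 without WT replicate 9 and 5 without WT replicate 10. *Psmb8*, a subunit of the immunoproteasome, had 209, 133, 254 and 74.3 CPM in L skin and 62.8, 60.3 and 57.3 CPM in WT skin and rose by 1.48 ± 0.37 (SE; adjusted p = 0.013). *Psme2*, a proteasome activator, had 172, 159, 202 and 105.2 CPM in L skin and 83.0, 77.3 and 78.0 CPM in WT skin and rose by 1.007 ± 0.20 (SE; adjusted p = 0.0038). *H2-D1*, the most abundant of the list, had 1826, 1709.7, 1899 and 1067 CPM in L skin and 1172, 1189 and 959.9 CPM in WT skin (adjusted p = 0.072). None of 10 class II genes passed the threshold with edgeR (median 0.73), 3 had an unadjusted p under 0.05, and the number that rose was 8 without L replicate 7 and 2 with DESeq2. *Cd74*, the class II invariant chain, had 1016, 930.4, 1389.9 and 386 CPM in L skin and 475, 705 and 542 CPM in WT skin (adjusted p = 0.16), with L replicate 7 below all WT libraries. Among 21 nucleic acid sensors and Toll-like receptors 2, *Tlr12* and *Cgas*, rose and 1, *Tlr5*, fell (median 0.42), well under the 23% and 20.2% of all tested genes with edgeR, and these numbers were 4 without L replicate 5 or 7 and 0 without WT replicate 9 or 10 or L replicate 4 or 7. With DESeq2 6 rose and 2 fell, beside 4656 higher of 18965 genes tested, so the low share of increases depended on the tool. *Cgas*, the sensor of DNA in the cytosol, had 6.46, 5.90, 5.64 and 6.02 CPM in L skin and 2.83, 2.85 and 3.49 CPM in WT skin and rose by 0.97 ± 0.17 (SE; adjusted p = 0.0023), with close values among lesions.

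Interferon-stimulated genes carry a known promoter element, to which STAT and IRF factors bind. A core of it, GAAA 2 times with any 2 bases between, was searched for on both strands of the same 250 bases. It was in 3.04% of all listed promoters and 2.78% of those of tested genes. Among type I interferon-stimulated genes 11 of 27 listed promoters held it, and among interferon gamma-inducible genes 11 of 15. Within the first list the share was 42.9% of 7 promoters of genes called higher and 40% of 20 of genes not called. A match is a description of letters and not a site that was shown to be bound. The stretches of *Isg15*, with 3 matches that overlap in capitals, and of *Cxcl10*, another T cell ligand, are given in the same way.
Isg15, chr4:156200847-156200936: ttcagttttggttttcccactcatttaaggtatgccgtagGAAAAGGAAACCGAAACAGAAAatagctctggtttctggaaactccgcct
Cxcl10, chr5:92349053-92349139: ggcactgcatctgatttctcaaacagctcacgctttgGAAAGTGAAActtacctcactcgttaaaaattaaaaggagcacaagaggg

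Genes of cytokines were among the increases. Of 35 cytokine genes 17 rose and 2, *Il34* and *Il12a*, fell (median 1.52), and the number that rose was 11 without WT replicate 8, 9 or 10. Beside these counts and those of antimicrobial genes below, 23% of all tested genes rose and 20.2% fell. Without WT replicates 8, 9 and 10 in turn, 3511 of 18923, 3256 of 18934 and 3302 of 18989 tested genes rose. *Il1f6*, which encodes IL-36α, an alarm signal of keratinocytes, had 39.4, 27.2, 20.2 and 25.9 CPM in L skin and 0.251, 0.190 and 0.223 CPM in WT skin and rose by 6.97 ± 0.55 (SE; adjusted p = 0.00011). *Il1f5*, which encodes the antagonist of its receptor, had 440.4, 321, 225 and 163 CPM in L skin and 91.5, 76.9 and 83.7 CPM in WT skin and rose by 1.77 ± 0.31 (SE; adjusted p = 0.0026). *Il17a*, a cytokine of T cells, was absent from WT skin and low in L skin, at 0.237, 0.197, 0.132 and 0.883 CPM (adjusted p = 0.017), and without WT replicate 8 or L replicate 4 or 7 it did not pass the filter on low counts. In all, *Il17a* could be fitted under 13 of 18 alternatives. *Il12b*, a subunit shared by IL-12 and IL-23, had 0.619, 0.888, 1.26 and 1.12 CPM in L skin and 0.0228, 0.0237 and 0 CPM in WT skin (adjusted p = 0.00097). Of 20 antimicrobial and alarmin genes 13 rose and none fell (median 2.89, 2.04 without L replicate 4, or 2.79 with 4 at their limit), with sums of 1138, 773, 352 and 371 CPM in L skin and 106, 126 and 96.5 CPM in WT skin. *S100a7a* (chr3:90654017-90658669), the mouse psoriasin, had 28.02, 56.6, 19.7 and 30.9 CPM in L skin and 0.137, 0.142 and 0.148 CPM in WT skin and rose by 7.86 ± 0.57 (SE; adjusted p = 7.7e-05). *Defb6*, a β-defensin, had 262, 383, 133 and 146 CPM in L skin and 57.0, 61.8 and 45.3 CPM in WT skin and rose by 2.08 ± 0.38 (SE; adjusted p = 0.0034). *Saa3*, an acute-phase protein, had 172, 2.57, 16.5 and 34.8 CPM in L skin and 0.319, 0.142 and 0.0989 CPM in WT skin and rose by 8.20 ± 1.70 (SE; adjusted p = 0.0063), most in L replicate 4. Over the alternative settings and left-out libraries, its change ranged from 6.55 to 8.84.

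Neutrophil genes gave the largest rise among immune cell lists. Of 20 tested, 12 rose and none fell (median 4.30, 2.35 without L replicate 4 and 5.02 without L replicate 6, or 3.25 with 5 at their limit), and the sums were 1363, 509.5, 769 and 190.4 CPM in L skin and 39.96, 50.2 and 49.3 CPM in WT skin. With the stricter filter, 10 counts in each L and WT library, 3 neutrophil genes rose. These counts and those of the chemokine lists below stand beside 23% higher and 20.2% lower of all tested genes. The most abundant member was *Stfa3* (chr16:36450537-36455392), a stefin that blocks cysteine proteases, with 588, 334, 613 and 107 CPM in L skin and 0.433, 0.190 and 0.0247 CPM in WT skin and a rise of 10.85 ± 1.15 (SE; adjusted p = 0.00038). *Stfa2* was absent from WT skin and had 15.4, 14.8, 34.7 and 5.08 CPM in L skin, at least 246-fold higher (adjusted p = 0.0026). Stefins of this cluster are also made by keratinocytes, and their source was not tested. Of 37 chemokine ligands 16 rose and 2, *Pf4* and *Ccl24*, fell (median 1.13), numbers that were 10 without WT replicate 10 and 1 without WT replicate 9 or 10 or L replicate 4. *Ccl4* had 12.7, 0.493, 2.16 and 0.793 CPM in L skin and 0.0228, 0 and 0.0247 CPM in WT skin (adjusted p = 0.0083), with most of it in L replicate 4. *Ccl8*, the most abundant ligand, had 345, 136, 545 and 290.2 CPM in L skin and 75.6, 207 and 139 CPM in WT skin (adjusted p = 0.13). Of 21 chemokine receptors 10 rose and 3 fell (median 0.99), and the number that rose was 5 without WT replicate 8 and 6 without WT replicate 10 or L replicate 6. The 3 that fell, *Ackr2*, *Ackr3* and *Ackr4*, are all scavenger receptors that take up ligand without signalling as the others do. *Ackr3*, the most abundant of the receptors, had 36.5, 26.3, 44.8 and 33.6 CPM in L skin and 53.9, 86.7 and 102 CPM in WT skin and changed by -1.19 ± 0.24 (SE; adjusted p = 0.0042).

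Many T cell genes rose, though from a low level. Of 21 tested 14 rose and 1, the γδ receptor gene *Trdc*, fell (median 1.27), with sums of 135, 161, 149.5 and 70.4 CPM in L skin and 82.2, 62.7 and 79.5 CPM in WT skin, where L replicate 7 lay within the range of the WT libraries. *Cd8a* (chr6:71373427-71379173), the coreceptor of cytotoxic T cells, had 6.74, 11.9, 12.1 and 0.919 CPM in L skin and 0.160, 0.190 and 0.470 CPM in WT skin and rose by 4.85 ± 1.11 (SE; adjusted p = 0.0090). *Cd8b1* had 3.24, 4.79, 6.61 and 0.414 CPM in L skin and 0.0912, 0.0950 and 0.0989 CPM in WT skin and rose by 5.27 ± 1.12 (SE; adjusted p = 0.0065). L replicate 7 had much less of both than the other lesions. *Icos*, a costimulator of activated T cells, had 4.68, 6.39, 6.79 and 2.20 CPM in L skin and 0.205, 0.0950 and 0.223 CPM in WT skin and rose by 4.82 ± 0.69 (SE; adjusted p = 0.00092). *Cd3g*, the most abundant member, had 18.7, 21.5, 17.8 and 10.3 CPM in L skin and 22.2, 14.1 and 19.3 CPM in WT skin (adjusted p = 0.74), with L replicate 7 below every WT library and the other lesions within the WT range. Among 15 cytotoxic and NK cell genes 4 rose (*Gzmb*, *Klrc1*, *Gzma* and *Klrk1*) and 1, *Prf1*, fell (median 1.97, or 1.78 with 1 at its limit), beside 23% higher and 20.2% lower of all tested genes. *Gzmb*, a granule protease, had 7.01, 4.07, 10.8 and 2.77 CPM in L skin and 0.137, 0.142 and 0.148 CPM in WT skin and rose by 5.41 ± 0.85 (SE; adjusted p = 0.0015). *Klrc1*, the inhibitory receptor NKG2A, had 3.33, 3.33, 4.08 and 0.991 CPM in L skin and 0.114, 0.0950 and 0.0989 CPM in WT skin and rose by 4.797 ± 0.61 (SE; adjusted p = 0.00054). *Prf1*, the pore-forming protein perforin and the most abundant member, had 3.10, 1.41, 3.22 and 1.86 CPM in L skin and 9.37, 6.41 and 9.55 CPM in WT skin and changed by -1.82 ± 0.35 (SE; adjusted p = 0.0036). Of 12 regulatory T cell and checkpoint genes 10 rose (median 1.65), a number that was 6 without WT replicate 9 or 10, and none fell (1 without L replicate 4). *Pdcd1*, which encodes PD-1, had 0.819, 1.33, 2.51 and 0.486 CPM in L skin and 0.0912, 0.0237 and 0.0495 CPM in WT skin and rose by 4.47 ± 0.79 (SE; adjusted p = 0.0033). Its ligand *Pdcd1lg2* had 1.02, 0.814, 2.00 and 1.46 CPM in L skin and 0.114, 0.0475 and 0.0989 CPM in WT skin and rose by 3.89 ± 0.51 (SE; adjusted p = 0.00062). The most abundant member, *Ikzf2*, was not called, with 18.7, 15.4, 13.4 and 7.26 CPM in L skin and 25.4, 18.4 and 22.2 CPM in WT skin (adjusted p = 0.075). The list summed to 103, 95.7, 102 and 49.4 CPM in L skin and 64.7, 47.1 and 49.98 CPM in WT skin, with L replicate 7 within the range of the WT libraries.

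Other immune lists were mixed, and their counts stand beside 23% higher and 20.2% lower among all tested genes. Of 19 B cell and plasma cell genes 6 rose (3 without WT replicate 9) and 1, *Ighm*, fell (0 without WT replicate 8 or 9), at a median of 1.59 (2.50 without WT replicate 10). *Sdc1*, a plasma cell marker that keratinocytes express strongly, made up most of the list's sum, with 533, 858, 524 and 522 CPM in L skin and 257, 233 and 212 CPM in WT skin and a rise of 1.38 ± 0.20 (SE; adjusted p = 0.00098). Monocyte and macrophage genes had a median of -0.18, and 4 of 24 rose (among them *Fcgr4* and *Gpnmb*; 2 without WT replicate 8) while 1, *Lyve1*, fell (2 without WT replicate 8 or L replicate 5 and 5 without L replicate 6). *Fcgr4*, a receptor for IgG, had 14.97, 3.82, 10.7 and 5.06 CPM in L skin and 0.342, 0.665 and 0.816 CPM in WT skin and rose by 3.83 ± 0.57 (SE; adjusted p = 0.0011). *Gpnmb*, which melanocytes make as well, had 75.2, 113, 131 and 202 CPM in L skin and 37.4, 60.04 and 33.5 CPM in WT skin and rose by 1.58 ± 0.35 (SE; adjusted p = 0.0079), highest in the lesion with the highest sum of melanocyte genes. *Lyve1*, of resident macrophages and lymphatic vessels, had 11.0, 13.2, 22.3 and 5.69 CPM in L skin and 22.3, 71.4 and 88.7 CPM in WT skin and changed by -2.22 ± 0.56 (SE; adjusted p = 0.014). *Lyz2*, the most abundant of the list, had 605, 324, 984 and 409 CPM in L skin and 381, 937 and 537 CPM in WT skin (adjusted p = 0.88). Of 14 dendritic and Langerhans cell genes 5 rose (*Ccr7*, *Xcr1*, *Fscn1*, *Ccl22* and *Epcam*) and 4 fell (*Zbtb46*, *Mgl2*, *Cd209a* and *Siglech*; 2 without WT replicate 9 or 10 or L replicate 7), at a median of 0.61. *Fscn1*, of mature dendritic cells, had 26.8, 40.996, 35.0 and 45.01 CPM in L skin and 9.15, 8.71 and 11.3 CPM in WT skin and rose by 1.93 ± 0.20 (SE; adjusted p = 0.00026). Mast cell and eosinophil genes had 1 of 13 higher, *Fcer1a* (2 without WT replicate 9 or L replicate 4 and 3 without L replicate 5), and 2 lower, *Siglecf* and *Mrgprb2* (0 without WT replicate 8 or 10 and 1 without WT replicate 9 or L replicate 4 or 7), with a median of 0.58 that was -0.12 without L replicate 4. Of 20 complement genes 1, the inhibitor *Cd55*, fell (6 without L replicate 5 or 6) and none rose (median -0.67). It had 39.9, 26.9, 46.1 and 39.2 CPM in L skin and 95.5, 116 and 132 CPM in WT skin and changed by -1.59 ± 0.18 (SE; adjusted p = 0.00037), while *Cfd*, a complement protease that fat cells secrete, had 1221, 139, 1657 and 479 CPM in L skin and 2259.5, 2588 and 2669 CPM in WT skin (adjusted p = 0.10).

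**Figure D3:**
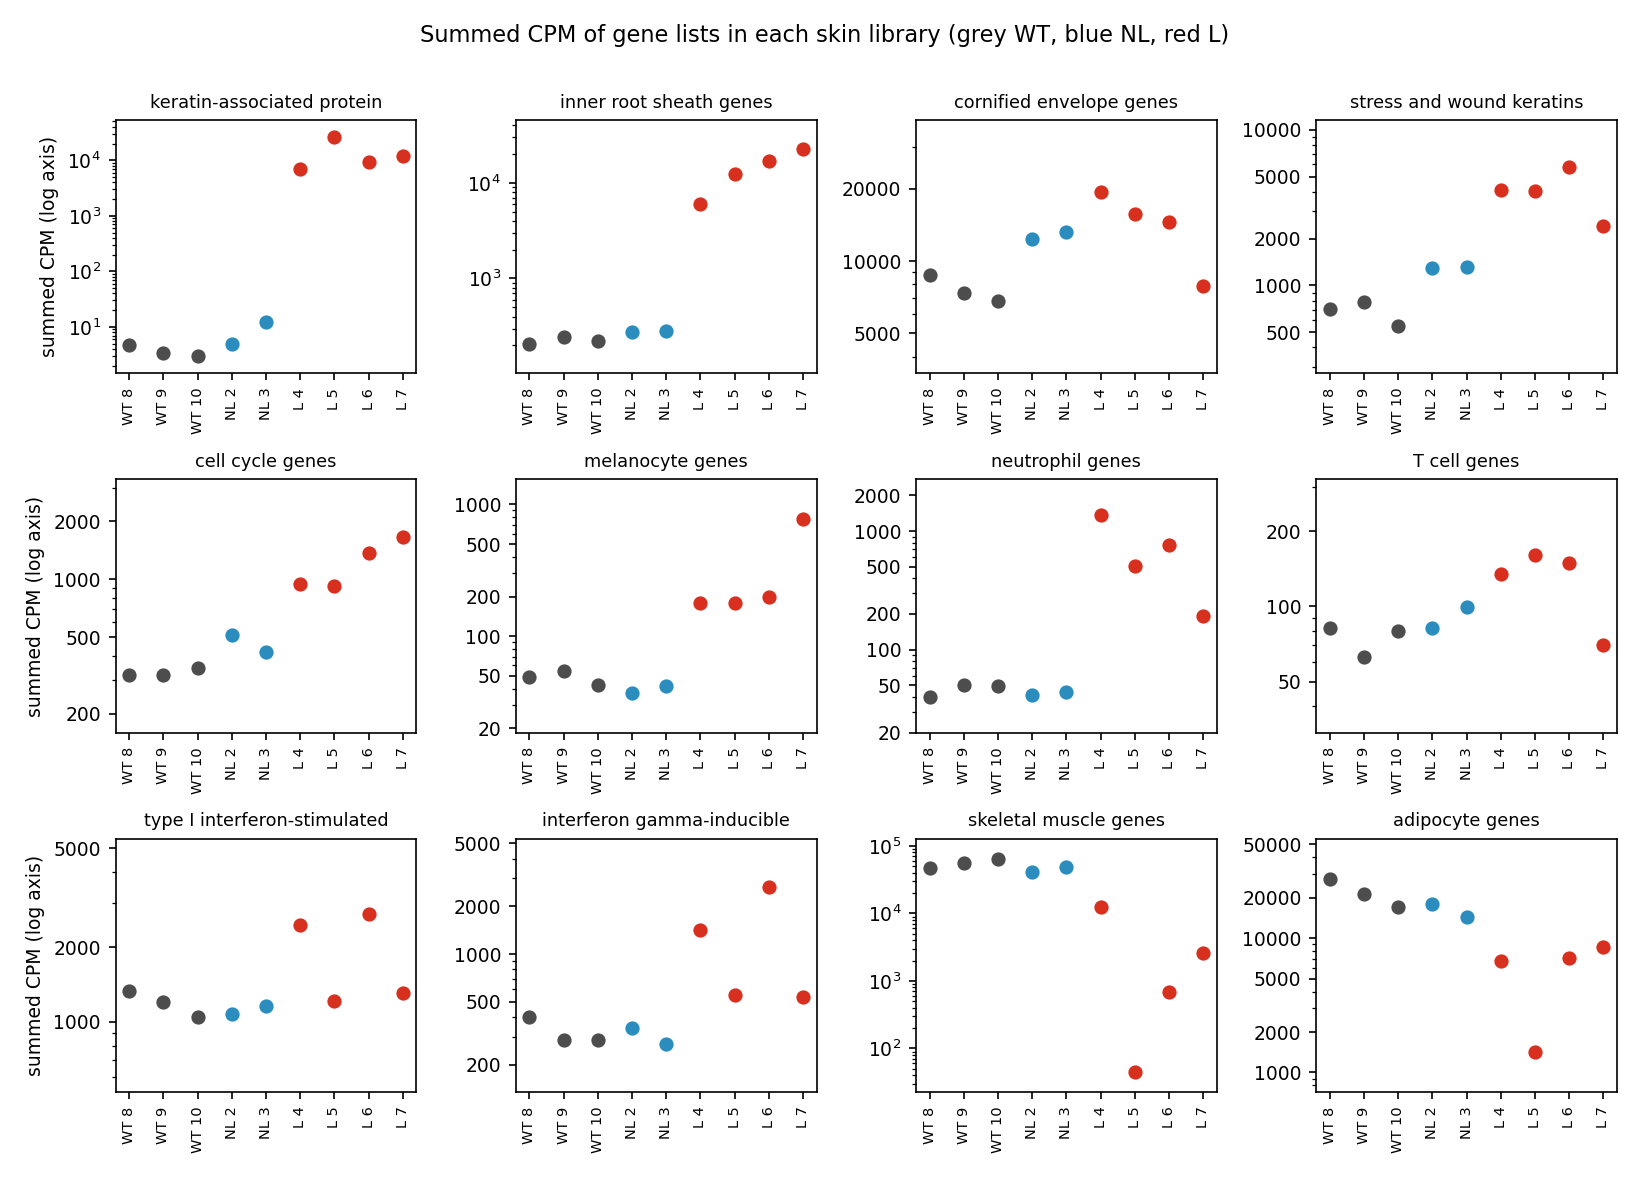
Summed CPM of the members of selected gene lists in each of the 9 skin libraries (log axis), for WT (grey), NL (blue) and L (red). Lesions differ widely for the muscle list, from 45.3 to 12453 CPM, and the interferon list is highest in L replicates 4 and 6.

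Of all lists, skeletal muscle had the largest loss of summed CPM. A thin sheet of skeletal muscle lies under mouse skin, and how much of it a piece of skin holds depends on its depth and site. Skeletal muscle genes summed to 12453, 45.3, 676 and 2569.97 CPM in L skin and 46739, 55221 and 63532 CPM in WT skin, with the least in L replicate 5 and the most in L replicate 4, below all WT libraries. Of 19 genes 8 fell and none rose, at a median of -3.89 (-5.63 without L replicate 4). The call depended on single libraries, since the number that fell was 0 without WT replicate 8, 9 or 10 or L replicate 6 or 7, 19 without L replicate 4 and 16 without L replicate 5, 13 with the stricter filter or with no robust estimation, 4 with the L and WT libraries alone or with *Xist* as a covariate and 0 with no filter. *Acta1* (chr8:123891769-123894751), skeletal α-actin, had 1936, 6.51, 84.5 and 474 CPM in L skin and 8748, 11539 and 12056 CPM in WT skin and changed by -4.11 ± 1.43 (SE; adjusted p = 0.048). Its adjusted p was 0.081, 0.090 and 0.091 without WT replicates 8, 9 and 10, and 0.082 and 0.12 without L replicates 6 and 7. With the L and WT libraries alone, *Xist* as a covariate and no filter it was 0.061, 0.059 and 0.12. *Myh1* (chr11:67200052-67224575), a fast myosin, had 898, 4.59, 95.4 and 134 CPM in L skin and 5776, 5226 and 7029 CPM in WT skin and changed by -4.41 ± 1.33 (SE; adjusted p = 0.029), with adjusted p values of 0.057, 0.055, 0.061, 0.062 and 0.082 without those same libraries and 0.081 with no filter. *H19* (chr7:142575529-142578143), a long non-coding RNA that adult muscle keeps expressing, had 94.6, 2.86, 13.4 and 44.95 CPM in L skin and 968, 1470.2 and 1305 CPM in WT skin and changed by -5.001 ± 1.0103 (SE; adjusted p = 0.0056). *Mstn*, the growth inhibitor myostatin, had 12.1, 0.469, 0.925 and 7.87 CPM in L skin and 130.3, 148 and 149 CPM in WT skin and changed by -4.72 ± 0.98 (SE; adjusted p = 0.0063). L replicate 4 came nearest to the WT libraries for these 4 genes, which were named among genes without overlap. Among 9 smooth muscle genes 2, *Tagln* and *Smtn*, rose (1 without WT replicate 8 or 9) and 4 fell, *Myh11*, *Lmod1*, *Synpo2* and *Des* (median -0.32). Beside the counts of both muscle lists, 23% of all tested genes rose and 20.2% fell. *Lmod1*, a leiomodin, had 3.53, 4.74, 3.68 and 5.48 CPM in L skin and 37.1, 32.0 and 30.2 CPM in WT skin and changed by -2.93 ± 0.17 (SE; adjusted p = 4.7e-05), with much closer lesions than the skeletal genes. *Synpo2* had 88.0, 18.6, 25.4 and 73.3 CPM in L skin and 489, 410.2 and 432 CPM in WT skin, a change of -3.11. *Des*, which skeletal muscle shares, had 481, 24.5, 34.3 and 129.7 CPM in L skin and 1797, 2299 and 2454 CPM in WT skin, a change of -3.71 (adjusted p = 0.017, and 0.054 without L replicate 7).

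Many transcripts of fat and energy metabolism also fell. Their counts are to be held against 23% higher and 20.2% lower among all tested genes. Of 15 adipocyte genes 10 fell and none rose (median -1.78), and the number that fell was 3 without WT replicate 8 and 4 without WT replicate 9 and 5 with no filter. Summed levels were 6728, 1431, 7119.6 and 8571 CPM in L skin and 27381, 21385 and 17162 CPM in WT skin, lowest in L replicate 5. *Adipoq*, the hormone adiponectin, had 271, 53.6, 336 and 389 CPM in L skin and 1456, 1279 and 893 CPM in WT skin and changed by -2.20 ± 0.55 (SE; adjusted p = 0.013). *Car3*, a carbonic anhydrase of fat and muscle and the most abundant of the list, had 1771, 191, 2134 and 2959 CPM in L skin and 10706, 8773 and 7603 CPM in WT skin and changed by -2.36 ± 0.70 (SE; adjusted p = 0.026), and its adjusted p was 0.067, 0.056 and 0.051 without WT replicate 8, WT replicate 9 and L replicate 4 and 0.067 with no filter. Glycolysis genes had 13 of 22 lower and 2, *Pgam1* and *Eno1*, higher (6 without L replicate 7), at a median of -1.02. *Aldoa* (chr7:126795234-126800751), aldolase, which muscle expresses most, had 1867, 753, 898 and 1006 CPM in L skin and 6123, 7264 and 7391 CPM in WT skin and changed by -2.61 ± 0.31 (SE; adjusted p = 0.00039). *Fbp2*, the muscle form of fructose bisphosphatase, had 3.13, 2.69, 2.07 and 3.10 CPM in L skin and 57.6, 37.2 and 50.8 CPM in WT skin and changed by -4.14 ± 0.21 (SE; adjusted p = 3.8e-05). Of 81 nuclear genes of the respiratory chain 38 fell and 3 rose (*Cox4i2*, *Cox6a1* and *Cox8a*; 5 without L replicate 6), at a small median of -0.32. *Cox7a1*, a subunit isoform of muscle, had 16.6, 0.863, 1.89 and 3.71 CPM in L skin and 38.5, 49.6 and 34.8 CPM in WT skin and changed by -2.82 ± 0.85 (SE; adjusted p = 0.029). Its adjusted p was 0.061, 0.073 and 0.056 without WT replicates 8, 9 and 10, 0.055 and 0.082 without L replicates 6 and 7 and 0.078 with no filter. *Atp5b*, of the ATP synthase and the most abundant member, had 989, 789.5, 945 and 1102 CPM in L skin and 1326, 1402 and 1472 CPM in WT skin and changed by -0.55 ± 0.14 (SE; adjusted p = 0.013), and without WT replicate 10 its adjusted p was 0.052. Of 13 genes on the mitochondrial genome 4 fell, *mt-Nd1*, *mt-Nd2*, *mt-Nd4l* and *mt-Nd5* (2 without WT replicate 8, 9 or 10 or L replicate 6 and 8 without L replicate 4), and none rose (median -0.57). *mt-Nd2* had 3888, 3207, 1705 and 1917 CPM in L skin and 6771, 5776 and 6266 CPM in WT skin and changed by -1.23 ± 0.29 (SE; adjusted p = 0.00998), and *mt-Co1*, the most abundant, had 29409, 25505, 15008 and 14727 CPM in L skin and 31504, 26969 and 31130.1 CPM in WT skin (adjusted p = 0.20). How far the loss of muscle and fat transcripts carries the metabolic genes was not tested.

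For genes of structural cells of the dermis, shares called are to be held against the 23% higher and 20.2% lower of all tested genes, which several do not exceed. Among 27 fibroblast and matrix genes 3 rose (*Tnc*, *Col12a1* and *Postn*) and 1, *Dcn*, fell (median -0.50), but the number that fell was 2 without WT replicate 8 and 11 without L replicate 7 and 8 with DESeq2. *Tnc* (chr4:63959785-64047015), tenascin C, a matrix protein of wounds and growing tissue, had 79.0, 74.2, 56.8 and 71.7 CPM in L skin and 2.69, 2.83 and 3.68 CPM in WT skin and rose by 4.52 ± 0.29 (SE; adjusted p = 4.9e-05), in all lesions alike. *Col12a1*, a collagen on fibril surfaces, had 47.9, 69.6, 36.7 and 75.9 CPM in L skin and 18.6, 22.7 and 18.4 CPM in WT skin and rose by 1.53 ± 0.27 (SE; adjusted p = 0.0024). *Col3a1*, the most abundant member, had 1658, 1632, 1070.2 and 2992 CPM in L skin and 1352, 1894 and 2642 CPM in WT skin (adjusted p = 0.86). *Dcn*, decorin, which binds collagen, had 477, 655, 615 and 739 CPM in L skin and 816, 1359 and 1274 CPM in WT skin and changed by -0.89 ± 0.21 (SE; adjusted p = 0.0099). Of 18 matrix metalloproteinases and inhibitors 4 rose (*Mmp10*, *Mmp12*, *Mmp13* and *Timp1*; 1 without WT replicate 8 or 9 and 2 without WT replicate 10) and 4 fell (*Mmp27*, *Mmp28*, *Timp2* and *Timp4*; 2 without WT replicate 9), at a median of -0.34. *Timp2*, the most abundant, had 231, 248, 349 and 316 CPM in L skin and 437, 846 and 741 CPM in WT skin and changed by -1.24 ± 0.23 (SE; adjusted p = 0.0034). Endothelial genes had 5 of 17 lower, *Cdh5*, *Emcn*, *Flt1*, *Kdr* and *Tek* (8 without L replicate 6), and none higher (1 without WT replicate 10 or L replicate 5 or 7), with a median of -0.59. *Kdr*, a receptor for VEGF, had 14.9, 14.5, 21.97 and 32.8 CPM in L skin and 50.3, 45.7 and 49.6 CPM in WT skin and changed by -1.21 ± 0.27 (SE; adjusted p = 0.0077), while *Pecam1*, an adhesion protein of all vessels, had 54.0, 40.2, 78.8 and 72.8 CPM in L skin and 119, 78.7 and 85.2 CPM in WT skin (adjusted p = 0.066). Of 10 Schwann cell and nerve genes 4 fell, among them *Mbp*, and none rose (1 without WT replicate 10), at a median of -0.27. *Mbp*, a protein of myelin, had 43.5, 40.6, 45.7 and 37.8 CPM in L skin and 80.0, 74.2 and 87.0 CPM in WT skin and changed by -0.94 ± 0.10 (SE; adjusted p = 0.00027).

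Ribosomal protein genes rose almost as a block but by little. Of 83 tested 74 rose and none fell (1 without L replicate 4 or 5), with a median of 0.63 and sums of 70129.5, 59972, 50214 and 52268 CPM in L skin and 36238, 36705 and 32809 CPM in WT skin. *Rps14* (chr18:60747098-60778546), a protein of the small subunit, had 3474, 2645, 1782 and 2297 CPM in L skin and 1013, 896 and 802 CPM in WT skin and rose by 1.496 ± 0.26 (SE; adjusted p = 0.0022), the largest rise of the list. The lists that follow are to be held against 23% higher and 20.2% lower among all tested genes, which none exceeded with all libraries. Among heat shock genes 2 of 12 rose, *Dnajb1* and *Hspe1* (1 without WT replicate 9 or 10 or L replicate 6), and 1, *Bag3*, fell (median 0.12). Of 16 immediate early genes, which respond to handling of tissue, 2, *Egr3* and *Ier3*, rose (5 without WT replicate 8) and none fell (median -0.04, but 0.92 without WT replicate 8 and 0.09 without L replicate 4), and *Egr3* had 103, 131, 142 and 127 CPM in L skin and 68.5, 37.2 and 39.2 CPM in WT skin and rose by 1.38 ± 0.22 (SE; adjusted p = 0.0016). Their sum was 1095, 1562, 2564 and 2199.6 CPM in L skin and 4125, 846 and 1276 CPM in WT skin, highest in WT replicate 8. Of 6 red blood cell genes 1, *Slc4a1*, rose and none fell (median 0.33, but -0.42 without L replicate 5), and *Hbb-bs*, a β-globin gene and the most abundant, had 149, 438, 207 and 19.5 CPM in L skin and 206, 100.4 and 184 CPM in WT skin (adjusted p = 0.78).

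Genes that record position along the body differed between the groups. Fibroblasts and other skin cells keep an expression pattern of Hox genes that follows body site, with higher paralogue numbers toward the tail and the ends of the limbs. Of 29 Hox genes tested 12 fell and 1, the hair gene *Hoxc13*, rose (4 without L replicate 4), at a median of -1.25. These counts and those by paralogue stand beside 23% higher and 20.2% lower of all tested genes. Paralogues 1 to 4 had a median change of 0.51, with 1 of 10 lower and none higher. Paralogues 5 to 8 had a median of -1.69 with 5 of 11 lower, and paralogues 9 and 10 had -4.01 with 6 of 7 lower. *Hoxc10* (chr15:102966796-102971893) had 0, 0.0987, 0.0441 and 0.252 CPM in L skin and 3.88, 3.82 and 3.71 CPM in WT skin and changed by -5.21 ± 0.86 (SE; adjusted p = 0.0019). *Hoxa9* (chr6:52223100-52231089) had 0, 0.0493, 0.705 and 0.180 CPM in L skin and 10.2, 7.65 and 7.05 CPM in WT skin and changed by -5.15 ± 0.95 (SE; adjusted p = 0.0035). *Hoxa10* had 0, 0.0987, 1.014 and 0.234 CPM in L skin and 9.03, 6.65 and 6.28 CPM in WT skin, a change of -4.45, and *Hoxa7* had 1.68, 0.197, 5.64 and 2.77 CPM in L skin and 40.3, 28.9 and 34.9 CPM in WT skin, a change of -3.75. Over the alternative settings and left-out libraries, *Hoxc10* ranged from -6.35 to -4.77 and *Hoxa9* from -6.67 to -4.72. The range was -6.00 to -4.02 for *Hoxa10* and -4.46 to -3.37 for *Hoxa7*. *Hoxd9* fell less, with 4.12, 3.82, 3.15 and 3.53 CPM in L skin and 10.3, 10.3 and 11.4 CPM in WT skin and a change of -1.55 ± 0.14 (SE; adjusted p = 0.00016). In NL skin these 5 genes had 0.726 and 3.31, 3.27 and 8.09, 2.64 and 5.27, 45.8 and 51.8 and 9.54 and 9.39 CPM in replicates 2 and 3, above every lesion. *Hoxb2*, which is expressed further forward, had 0.382, 15.2, 10.2 and 18.1 CPM in L skin and 6.27, 4.89 and 5.49 CPM in WT skin (adjusted p = 0.41), and *Hoxb3* had 0.255, 12.0, 8.33 and 12.4 CPM in L skin and 4.58, 4.72 and 2.695 CPM in WT skin (adjusted p = 0.39). L replicate 4 had almost none of either, and the other lesions had more than WT skin. Body site and lesion cannot be told apart for these genes, nor for hair, muscle and fat genes, whose levels also differ between sites.

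**Figure D4:**
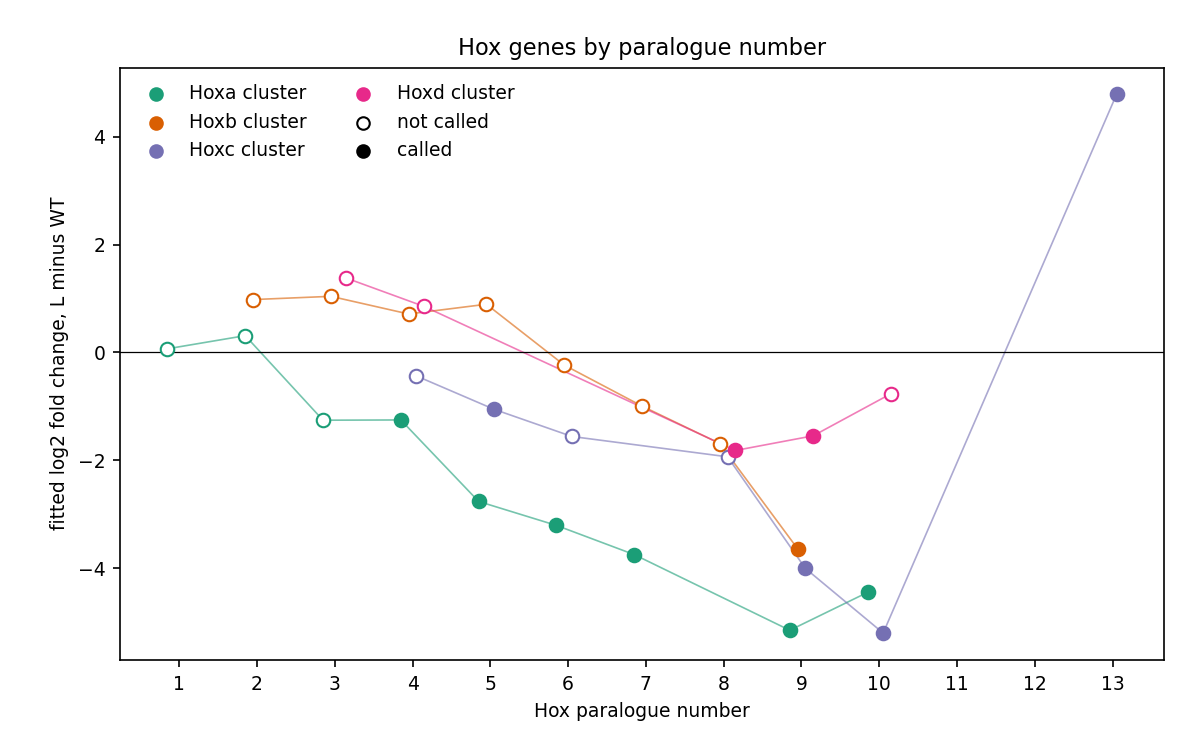
Log2 fold change of L over WT skin for each tested Hox gene by paralogue number, coloured by cluster and filled where called. Medians go from 0.51 for paralogues 1 to 4 to -4.01 for paralogues 9 and 10, and *Hoxc13*, a hair gene, lies at 4.79.

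Summed KRTAP, hair shaft, sheath and cell cycle genes lay above every WT library in all 4 lesions, and the lesions differed in the level of several lists. In a multidimensional scaling of the 500 most variable genes per pair, the first axis, with 76.8% of the variance, put the WT libraries between -3.38 and -3.23, NL replicates at -2.95 and -2.80, and lesions between 2.86 and 5.14. The second axis set L replicate 4, at -2.47, against L replicate 5, at 2.03. L replicate 4 had the highest sums of neutrophil (1363 CPM), antimicrobial (1138 CPM) and cytokine genes (1431 CPM) and the most muscle. L replicate 5 had the most KRTAP transcripts and the least muscle and fat. L replicate 6 had the highest sums of type I (2728 CPM) and gamma-inducible interferon genes (2665 CPM) and of class II genes (2756 CPM), and had almost no *Xist*. L replicate 7 had the lowest sums of class I (3292 CPM) and class II genes (794 CPM), the most melanocyte transcripts and the most *Krt71*. Whether these lesions differ by body site or stage was not tested, since the labels give no such value per library.

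**Figure D5:**
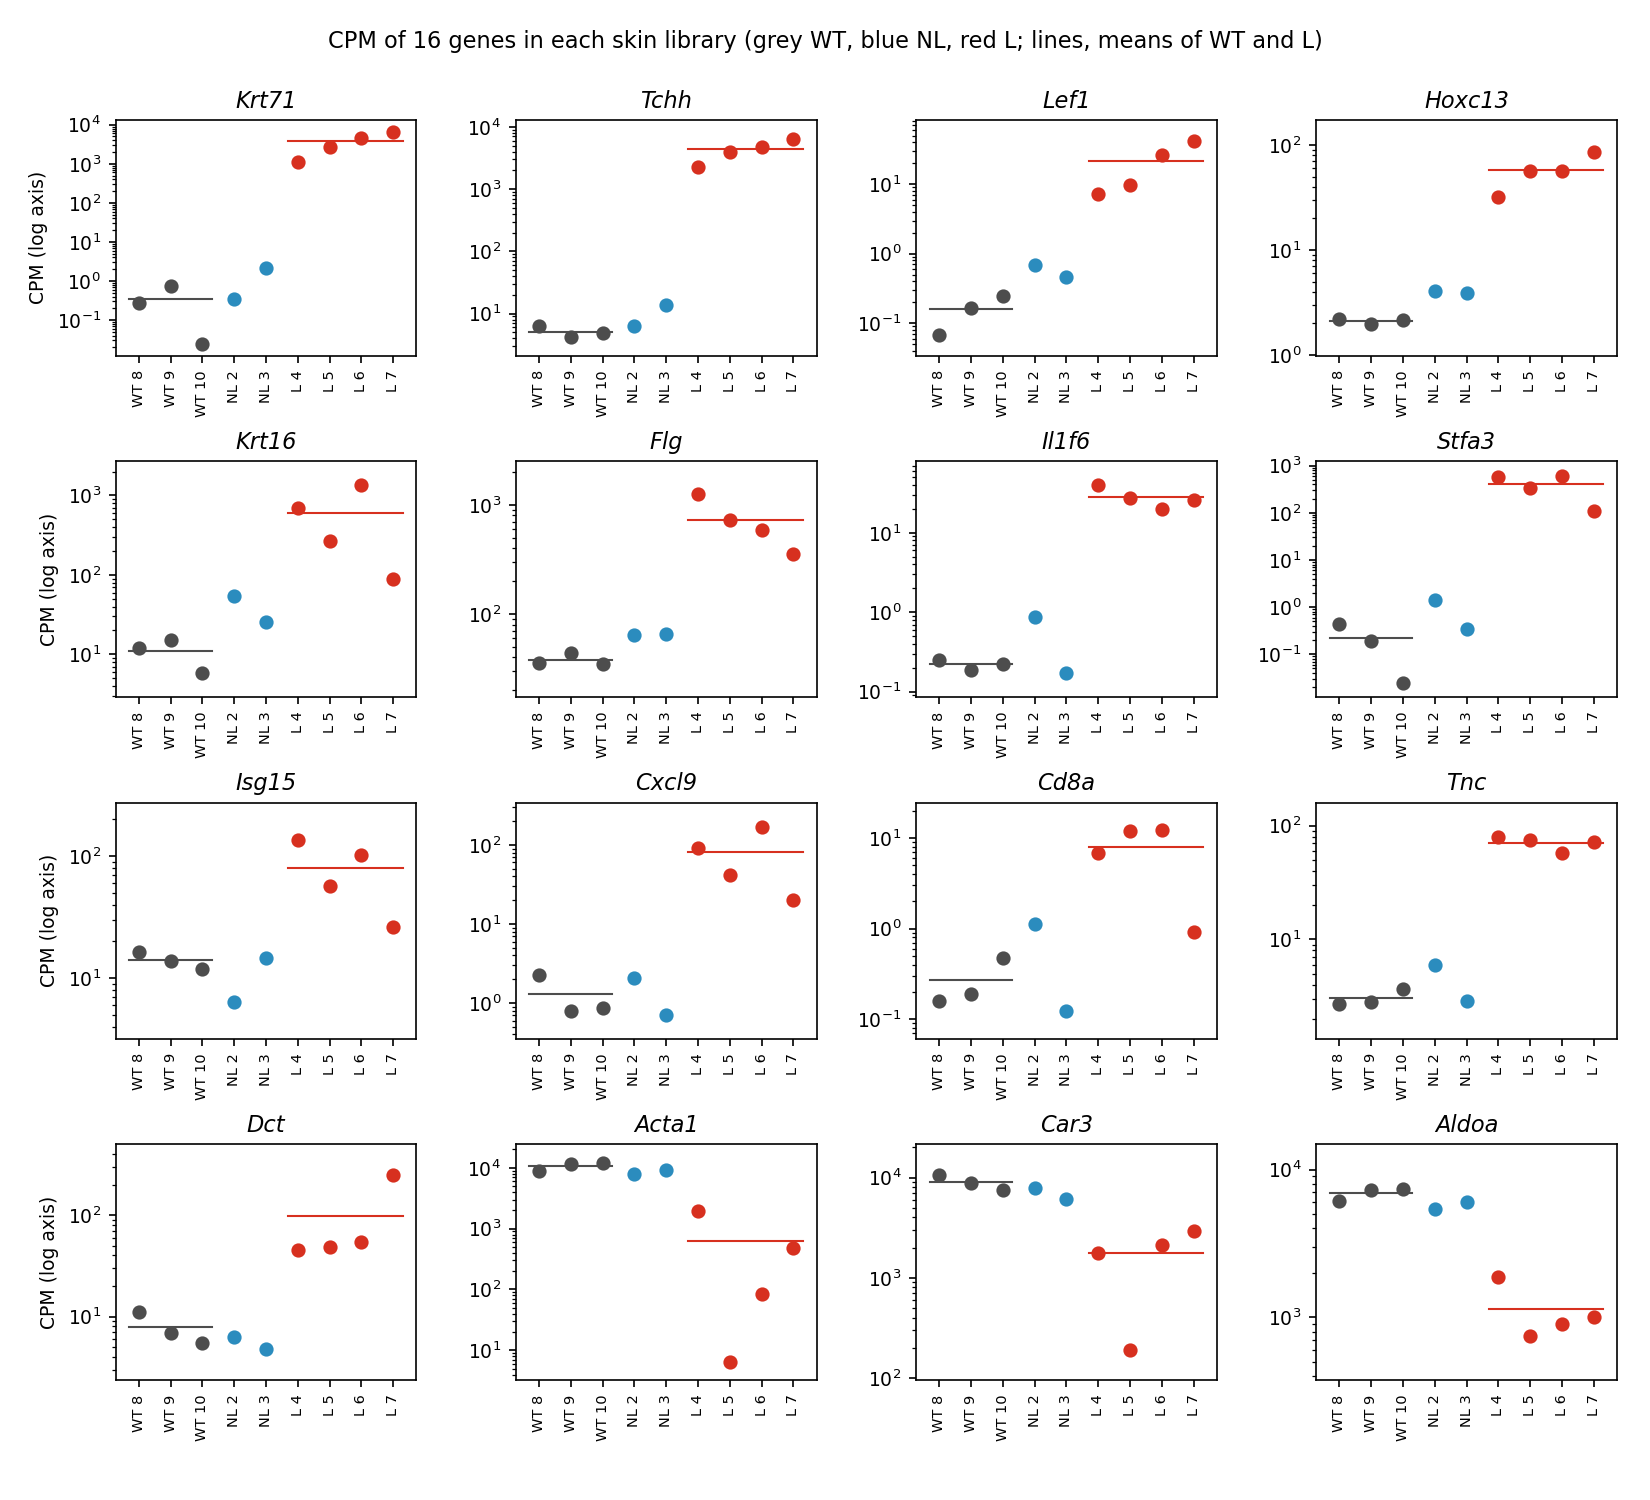
Level in CPM (log axis) of 16 genes in each of the 9 skin libraries, with lines at the means of WT and L skin. Lesions are close for *Tnc*, from 56.8 to 79.0 CPM, and far apart for *Acta1*, from 6.51 to 1936 CPM.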

How the data were processed

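The authors trimmed paired reads of poly-A libraries with cutadapt 4.8, aligned them to GRCm38 with STAR 2.7.8a and deposited expected counts per gene from RSEM 1.3.3, rounded to whole numbers and not normalized. Positions and exon lengths came from GENCODE M21. 4 entries of the table that name no mouse gene had 0 counts. All 9 skin libraries were fitted by group in edgeR 4.0.16 (limma 3.58.1, R 4.3.3) with a robust quasi-likelihood F-test, TMM factors and filterByExpr by group (at least 10 counts, 15 in total), which kept 19101 of 55487 genes, and p-values were adjusted by the Benjamini-Hochberg method over them. Levels are CPM on TMM-scaled library sizes, means have SDs, and standard errors of fold changes come from the F statistic. A group with no more than 3 counts in any library was set to 3 counts per library to give a lower bound. Plots were made with matplotlib 3.10.9 in Python 3.11.15. The code was tested on simulated data.

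Genes named with values are *Ifnk* and *Krt14* and the 10 called genes of each direction with the largest fold change. These 10 had at least 5 CPM on average in the lower group. The 5 called genes of each direction with the largest difference in CPM were named too. For each list, up to 3 called members with the largest change and the most abundant one were named, of which some were left out. Apart from *Ifnk*, *Krt14* and the most abundant members, all genes named by these rules had to show no overlap between L and WT libraries. Their lack of overlap follows from that choice. Any Hox, red blood cell or sex-linked gene could be named. Genes given in brackets or by name alone as the few members behind a count were chosen after their values were seen, as were the promoter motifs, the chromosome clusters and the contrasts between lesions. The comparison and the gene lists were chosen with earlier results of these data known, so no list was tested as a set.

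Libraries held 40499078 to 56511276 counts. The chi-square per degree of freedom between replicates was 51.0 to 76.1 in WT and 148 to 342 in L skin, far above sampling noise. No molecular identifiers are described, so floors cover counting error only, and the labels do not say that libraries came from separate mice, so p-values measure the spread between samples. Genes that share reads with near-identical copies, KRTAP genes above all, have uncertain counts. Alternatives were DESeq2 1.42.0, RLE and upper-quartile factors, TMM without hair, muscle and fat lists, no filter, a filter at 10 counts in each library, L and WT libraries alone, no robust estimation, *Xist* as a covariate, a stricter adjusted p (0.01), testing for changes beyond 1 log2 unit, and each library left out in turn.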

Additional observations from a re-analysis of the deposited data

Results flagged for a closer look

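In 13 of 176 sets of 4 L values, 1 library stood far from the other 3, measured by its gap to the nearest value as a share of the whole range. Chance alone gives about 1 in 20 such sets if they are independent and were chosen before their values were seen. Not all were, since the melanocyte sum holds *Dct* and *Tyr*, and *Tyr*, *Foxp3* and *Dsc2* were chosen afterwards. L replicate 7 was far above the others for the pigment genes *Dct* (249 CPM against 45.2 to 54.2), *Oca2* (12.3 against 1.23 to 2.58) and *Tyr* (59.1 against 10.9 to 12.3) and for the sum of the melanocyte list (774 against 178 to 199.7). The same library was high for *Il17a* (0.883 CPM against 0.132 to 0.237) and the desaturase gene *Fads2* (68.4 against 33.1 to 38.9), and low for the sum of regulatory T cell and checkpoint genes (49.4 against 95.7 to 103). L replicate 5 was high for *Krtap6-2* (956 CPM against 269 to 383), *Sdc1* (858 against 522 to 533) and the desmosome gene *Dsc2* (155 against 62.7 to 75.5). L replicate 4 was high for *Ccl4* (12.7 CPM against 0.493 to 2.16) and *Myh1* (898 against 4.59 to 134) and low for *Foxp3* (1.00 against 1.26 to 1.2999), where the lesions are close to each other.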

How the results depend on the processing

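Of the 111 named genes that passed the threshold, 102 kept their call under each of 18 alternatives, the 2 stricter thresholds aside, where they could be fitted. Over all named genes and alternatives, 2136 values of 2253 kept direction and side of the threshold, 82 no longer passed, 17 newly passed and 18 changed sign. An adjusted p under 0.01 left 4823 genes, 2637 higher and 2186 lower, and testing for changes beyond 1 log2 unit left 1732, 1093 higher and 639 lower, as stricter thresholds must. Leaving out single libraries gave 6243 to 8028 calls, 3256 to 4363 higher and 2941 to 3771 lower. DESeq2 called 9017, 4656 higher and 4361 lower. Decreases outnumbered increases with the L and WT libraries alone (3589 higher and 3867 lower) and with at least 10 counts in each of them (3341 and 3786). No gene was called in opposite directions by any alternative. Counts for lists that moved by over 1.5 times, beside those given with the lists for left-out libraries, were as follows. With DESeq2: type I interferon-stimulated genes 17 higher against 11, MHC class II genes 2 higher against 0, nucleic acid sensors and Toll-like receptors 6 higher against 2 and 2 lower against 1, regulatory T cell and checkpoint genes 1 lower against 0, monocyte and macrophage genes 3 lower against 1, mast cell and eosinophil genes 2 higher against 1, complement genes 4 lower against 1, cornified envelope genes 1 lower against 0, fibroblast and matrix genes 8 lower against 1 and endothelial and adhesion genes 1 higher against 0 and 8 lower against 5. With no filter: type I interferon-stimulated genes 7 higher against 11, interferon gamma-inducible genes 8 higher against 15, chemokine ligands 1 lower against 2, keratins of the interfollicular epidermis 0 lower against 1, sebaceous gland genes 5 higher against 8, adipocyte genes 5 lower against 10, skeletal muscle genes 0 lower against 8 and matrix metalloproteinases and inhibitors 1 higher against 4. With at least 10 counts in each L and WT library, which drops genes that WT skin hardly expresses: nucleic acid sensors and Toll-like receptors 1 higher against 2 and 2 lower against 1, interleukins and other cytokines 10 higher against 17, chemokine ligands 8 higher against 16, T cell genes 9 higher against 14, cytotoxic and NK cell genes 1 higher against 4, regulatory T cell and checkpoint genes 4 higher against 10, B cell and plasma cell genes 3 higher against 6, neutrophil genes 3 higher against 12, antimicrobial and alarmin genes 6 higher against 13, cornified envelope genes 27 higher against 44, keratin-associated protein genes 1 higher against 57, hair shaft keratins 2 higher against 15, inner root sheath genes 5 higher against 12, melanocyte genes 5 higher against 11, skeletal muscle genes 13 lower against 8, fibroblast and matrix genes 2 lower against 1, matrix metalloproteinases and inhibitors 2 higher against 4, Hox genes 7 lower against 12 and red blood cell genes 0 higher against 1. With the L and WT libraries alone: chemokine ligands 1 lower against 2, chemokine receptors 6 higher against 10, keratins of the interfollicular epidermis 3 higher against 5 and 0 lower against 1, skeletal muscle genes 4 lower against 8, smooth muscle genes 1 higher against 2 and heat shock genes 1 higher against 2. With *Xist* as a covariate: nucleic acid sensors and Toll-like receptors 2 lower against 1, monocyte and macrophage genes 6 lower against 1, complement genes 1 higher against 0 and 3 lower against 1, keratins of the interfollicular epidermis 0 lower against 1 and skeletal muscle genes 4 lower against 8. With TMM without hair, muscle and fat lists: mast cell and eosinophil genes 1 lower against 2. With no robust estimation: skeletal muscle genes 13 lower against 8 and ribosomal protein genes 1 lower against 0. The changes of sign were all in genes that did not pass: *Dmkn* (-0.00386 with DESeq2, -0.00386 with RLE factors, -0.025 with at least 10 counts in each L and WT library, -0.035 with the L and WT libraries alone, -0.045 without WT replicate 9, -0.031 without WT replicate 10 and -0.20 without L replicate 4, and at the other end 0.24 without L replicate 7), *Col3a1* (0.023 with *Xist* as a covariate, 0.18 without WT replicate 10 and 0.095 without L replicate 6, and at the other end -0.43 without L replicate 7), *Cd3g* (0.031 without WT replicate 8 and 0.060 without L replicate 7, and at the other end -0.29 without WT replicate 9), *Xist* (0.47 without WT replicate 8 and 0.39 without L replicate 6, and at the other end -0.33 without L replicate 5), *Lyz2* (0.33 without WT replicate 9, 0.11 without L replicate 5 and 0.046 without L replicate 7, and at the other end -0.47 without L replicate 6) and *Hbb-bs* (-0.38 without L replicate 5, and at the other end 0.70 without L replicate 7). The cause was not tested. No paired analysis was possible because the L, NL and WT libraries are numbered 4 to 7, 2 to 3 and 8 to 10 and share no number. Depth sets a floor of 3 counts per library, under which the WT levels of *Ifnk*, *Il17a* and many hair genes cannot be measured.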

Other observations

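A few genes outside the rule for named genes were chosen after their values were seen. They include 3 genes of connexins, the proteins of gap junctions, a family that was not counted as a whole. *Gjb2*, which encodes connexin 26, had 389, 459, 535 and 752 CPM in L skin and 2.81, 2.59 and 1.66 CPM in WT skin and rose by 7.82 ± 0.45 (SE; adjusted p = 4.7e-05). *Gjb6* had 42.5, 58.3, 49.5 and 56.6 CPM in L skin and 0.616, 0.237 and 0.495 CPM in WT skin and rose by 6.84 ± 0.33 (SE; adjusted p = 3.8e-05), with the lesions close together. *Gja1*, the most widespread connexin, had 485, 851, 616 and 1009.9 CPM in L skin and 86.3, 82.9 and 116 CPM in WT skin and rose by 2.96 ± 0.28 (SE; adjusted p = 0.00018). Among desmosome genes, *Dsg4*, a desmoglein of the hair cortex, had 32.6, 57.2, 76.6 and 98.1 CPM in L skin and 0.0228, 0.166 and 0 CPM in WT skin and rose by 9.97 ± 0.78 (SE; adjusted p = 0.00012), and *Dsc2* had 75.5, 155, 62.7 and 65.1 CPM in L skin and 7.00, 7.41 and 6.16 CPM in WT skin and rose by 3.71 ± 0.36 (SE; adjusted p = 0.00023). *Fabp5*, a fatty acid carrier of keratinocytes, had 1146, 1281, 1540.5 and 1055 CPM in L skin and 111, 140.1 and 94.3 CPM in WT skin and rose by 3.45 ± 0.23 (SE; adjusted p = 5.4e-05). None of these genes had lesions that overlapped WT skin. *Foxp3*, the factor of regulatory T cells, had 1.00, 1.26, 1.2999 and 1.297 CPM in L skin and 0.0684, 0.142 and 0.297 CPM in WT skin and rose by 2.83 ± 0.66 (SE; adjusted p = 0.0087), and *Tyr*, the first enzyme of pigment synthesis, had 10.9, 12.3, 10.9 and 59.1 CPM in L skin and 0.479, 0.0237 and 0.519 CPM in WT skin and rose by 6.09 ± 1.06 (SE; adjusted p = 0.0029). Over the alternatives, *Foxp3* ranged from 2.45 to 3.50 and *Tyr* from 5.05 to 6.51.

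The last 4 genes encode transcription factors of development and do not stand for such factors as a group. *Sim1* had 0.127, 0, 0.0220 and 0.0721 CPM in L skin and 4.20, 2.75 and 6.26 CPM in WT skin and changed by -6.15 ± 0.64 (SE; adjusted p = 0.00026). *Dlx1* had 1.88, 3.28, 6.28 and 5.42 CPM in L skin and 0.0912, 0 and 0.0247 CPM in WT skin and rose by 6.65 ± 0.79 (SE; adjusted p = 0.00042), and its neighbour *Dlx2* had 2.99, 4.74, 6.21 and 9.93 CPM in L skin and 0.0912, 0.0712 and 0 CPM in WT skin and rose by 6.69 ± 0.75 (SE; adjusted p = 0.00035). *Alx4*, a factor of limb and face development, had 5.41, 2.96, 3.70 and 4.38 CPM in L skin and 0.912, 0.237 and 1.51 CPM in WT skin and rose by 2.21 ± 0.55 (SE; adjusted p = 0.012). Some of these factors are known to mark body regions and others the hair follicle, and which of these their levels follow was not tested.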
